A study of Mus musculus with 6 samples.

Results

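The 317 circular RNAs (circRNAs) that the deposited table types as intron or exon_intron were described in mouse GC-2 spd(ts) cells exposed to bisphenol A (BPA). They were chosen by that annotated type alone, 183 of type intron and 134 of type exon_intron, out of 9158 circRNAs, the other 8841 being exonic. GC-2 spd(ts) is an immortal line derived from mouse spermatocytes that carries large T antigen and a p53 that is active only at a lower temperature. After 12 h without serum, cells received 120 µM BPA, a plastic monomer with weak estrogenic activity, or its vehicle, 0.1% dimethyl sulfoxide, for 48 h in medium with 10% serum. From each culture came a circRNA library, depleted of ribosomal RNA and digested with RNase R (an exonuclease that degrades linear RNA), an mRNA library and a small RNA library not analysed here. There was 1 library per group, so each comparison sets 1 BPA library against 1 control library, no test was made, and the intervals cover counting error only. The circRNA libraries held 17586 back-splice events with BPA and 12909 in the control, and the mRNA libraries 33071378 reads with BPA and 32312872 in the control. A count of 0 allows up to 0.0171% of the events with BPA and 0.0232% in the control. Of 12 germ cell markers looked up in the mRNA table, 2 passed a minimum of 10 reads, Hspa2 with 588 reads with BPA and 411 in the control and Piwil2 with 13 with BPA and 7 in the control, and 8 were not listed, among them Sycp1, Dmc1 and Stra8. Of 5 fibroblast and peritubular markers, 4 passed that minimum, all lower with BPA. Among them, Col1a1 had 39365 reads with BPA and 79234 in the control. Of 5 Sertoli markers, 4 passed, 3 higher and 1 lower with BPA. Of these, Gata4 had 1795 reads with BPA and 1959 in the control, and Sox9 525 with BPA and 389 in the control.

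Most circRNAs arise by back-splicing, in which the splice donor at the end of an exon is joined to the splice acceptor at the start of the same or an earlier exon. Exon-intron circRNAs keep an intron between such exons and are known to stay largely in the nucleus. The deposited values count back-splice junctions only. Whether a circRNA typed exon_intron keeps an intron, or where it lies in the cell, was therefore not measured. Circular intronic RNAs have another origin. In splicing, the first base of an intron is bound to an adenosine, the branch point, near the intron's 3′ end, and the loop so formed, the lariat, is normally opened by the debranching enzyme Dbr1 and degraded. A lariat that escapes debranching and loses its tail remains as a circle that begins at the first base of the intron and ends near the branch point.

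The genome sequence at their ends split the members into 2 forms that cut across the deposited types. The forms were defined after the positions had been seen and are used as a description. In 238 members the circle began exactly at the first base of an annotated intron and ended inside that intron, and these are called intron-start circles. They comprised 181 of the 183 members typed intron and 57 of the 134 typed exon_intron. All of those 57 overlapped an annotated exon of another transcript on the same strand, against 9 of the 181. In 78 of the other members, AG preceded the circle and GT (74) or GC (4) followed it, the letters of a splice acceptor and a splice donor, and these are called acceptor-to-donor circles. They were 76 members typed exon_intron and 2 typed intron, both in Magi1. The 1 remaining member spanned 172413 bases between the pseudogenes Tmem181c-ps and Tmem181b-ps, a pair of near-identical copies whose reads may not be separable, and had 0 events with BPA and 1 in the control. Among the exonic circRNAs, 8776 of 8841 had both ends at annotated splice sites, which checks the coordinate system.

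The back-splice junctions of 6 intron-start circles, those with the most events, are printed to show how the circle closes. Each line gives the last 20 bases of the circle followed by its first 10, on the transcribed strand (GRCm38), and capitals mark the first 6 bases of the intron, the 5′ splice site.
Pml, chr9:58229427-58229827, minus strand: caggaaggatttaatgctgcGTAGGAggat
Itpr3, chr17:27101235-27101550, plus strand: ctgcttgagtctctggctacGTAAGCcttg
Rab1b, chr19:5104947-5105177, minus strand: tgtctgctcagtccgtttcaGTGAGTaaga
Akr1a1, chr4:116641167-116641857, minus strand: ggtgctcaggactcttctcaGTAAGAatgg
Mast3, chr8:70783835-70784142, minus strand: ctctgggtgtccctggctgcGTAAGTgggg
Fhl1, chrX:56788171-56789112, plus strand: actggccccagtgcccctcaGTAACTgttg

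The genomic stretch from the last 10 bases of the same circles to the end of the intron shows what the circle leaves out. The capital marks the last base of the circle, and each stretch runs to the AG at the 3′ splice site.
Pml: ttaatgctgCcaccccctctccttttcag
Itpr3: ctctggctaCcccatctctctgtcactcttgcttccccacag
Rab1b: gtccgtttcAccagccacaacctttcag
Akr1a1: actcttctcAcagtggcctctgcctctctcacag
Mast3: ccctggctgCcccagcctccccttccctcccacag
Fhl1: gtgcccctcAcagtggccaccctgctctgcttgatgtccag

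The circles of Rab1b, Akr1a1 and Fhl1 ended on an adenosine, and those of Pml, Itpr3 and Mast3 on a cytosine. The missing tail was 18 to 32 bases long in these 6. The Rab1b circle, 231 bases of a 249-base intron, is shown whole, with the 5′ splice site and the last base in capitals.
Rab1b circle: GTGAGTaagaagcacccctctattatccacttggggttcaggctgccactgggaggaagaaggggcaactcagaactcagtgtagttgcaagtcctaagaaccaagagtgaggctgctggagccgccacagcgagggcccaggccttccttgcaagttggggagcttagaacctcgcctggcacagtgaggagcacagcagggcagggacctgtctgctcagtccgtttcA

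The ends of the intron-start circles lay in a narrow window. The median distance from the last base of the circle to the 3′ splice site was 25 bases, with quartiles of 21 and 31.8. Of the 238 circles, 199 (83.6%, exact 95% interval 78.3 to 88.1%) ended 15 to 50 bases before it, 21 ended nearer and 18 farther. The circle took in a median of 94.6% of its intron, measured to the nearest annotated 3′ splice site past its end. In 4 circles the end was the last base of the intron itself, in Tpm1, Zfp184, Zcwpw1 and Hccs, which were named after their values were seen, as are the genes named below for their ends or their intron class. A further 4 ended over 1000 bases from the nearest annotated 3′ splice site, in Ewsr1, Mad1l1, Erdr1 and Vgll4, where the distance to an unannotated site is not known. In 63 of the 238 the end could be moved by 1 or more bases without changing the junction sequence, since the letters after the circle repeat its first letters, so the exact base is uncertain there.

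**Figure D1:**
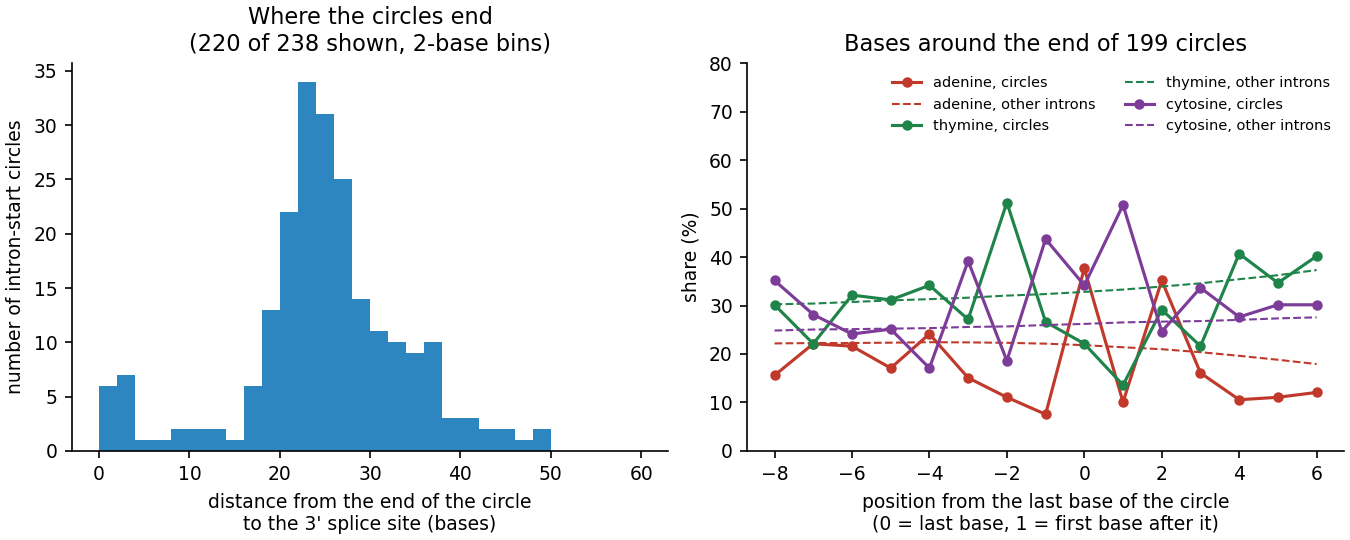
Left, the number of intron-start circles by the distance in bases from the last base of the circle to the 3′ splice site, in 2-base bins, for the 220 circles within 60 bases. Right, the share in percent of adenine, thymine and cytosine at each position around the last base of the 199 circles that end 15 to 50 bases before the splice site (solid lines with points), against the same distances in 4148 other introns of the same genes (dashed lines). The ends pile up near the median of 25 bases, and adenine peaks at positions 0 and 2, thymine at position -2 and cytosine at position 1.

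The bases around the end followed a pattern that other introns lacked at the same distances. Counting the last base of the circle as 0, adenine stood at position 0 in 37.7% of the 199 circles that ended in the window, against 21.8% in the 4148 other introns of at least 150 bases of the same host genes. It stood at position 2 in 35.2% of them, against 21.0%. Thymine stood at position -2 in 51.3% against 32.0%, and cytosine at position 1 in 50.8% against 26.5%. The core of the mammalian branch point motif is a T, any base and then the branch adenosine. The letters TNA with the A at position 0 were found in 55 of the 199 circles, 27.6%, against 8.36% of the other introns, and with the A at position 2 in 25 circles, 12.6%, against 8.23%. Only the transcribed strand was read, and a match is a description of letters.

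A pair of sequence elements has been described for human circular intronic RNAs, one rich in G and U beside the 5′ splice site and one rich in C beside the branch point. In these mouse circles, G or T made up 55.2% of bases 3 to 9 of the intron, against 52.9% in the other introns of the host genes. C made up 29.4% of the last 11 bases of the 199 circles, against 25.3% at the same distances. A G stood at the 5th base of the intron in 79.8% of members, against 78.8% of the others.

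The intron began with GT for 235 of the 238 intron-start circles and with ATATCC for 3, the start of the minor class of introns that is removed by the U12-dependent spliceosome. These introns are known for a conserved branch point motif that holds the letters TTCCTTNA. The start of each intron (first 6 bases in capitals) and the stretch from the last 10 bases of the circle onward (last base of the circle in capitals) are printed to show where the circle ends against that motif.
Naa60 start, chr16:3900878-3900897, plus strand: ATATCCtttactgctggaag
Naa60 end, chr16:3901763-3901782: tcttccttgAcagagcccac
Setd1a start, chr7:127796699-127796718, plus strand: ATATCCtaagccacagagcc
Setd1a end, chr7:127797053-127797073: cttttccttAatgccatgcac
Cul4b start, chrX:38552362-38552381, minus strand: ATATCCttttcaaaagaaaa
Cul4b end, chrX:38551961-38551990: taagtaaaaAtttcctgtcataaacctgtc

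In the introns of Naa60, an N-terminal acetyltransferase gene, and Setd1a, a histone methyltransferase gene, the circle ended within the letters TTCCTTNA. Its last base was the final A of the motif in Naa60 and the base before that A in Setd1a. Both introns ended in AC, 10 and 11 bases after the circle, and each circle had 1 event with BPA and 0 in the control. In Cul4b, a ubiquitin ligase scaffold, the circle ended 257 bases before the annotated 3′ splice site, no TTCCTTNA lay within 29 bases of its end, and it had 0 events with BPA and 1 in the control. TTCCTTNA stood in the last 50 bases of 5 of the 231 introns with an intron-start circle, 2.16%, and in 51 of the 4148 other introns, 1.23%.

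The introns that gave intron-start circles were short. Counted once per circle, their median length was 484.5 bases, against 823.5 for the 4964 other annotated introns of the same genes, and 89.1% of them were under 1000 bases, against 55.6%. The 2 lengths were not defined alike. For a circle, the intron with the nearest annotated 3′ splice site past its end was taken, which favours short introns. The other introns were all remaining annotated pairs of splice sites, down to 2 bases. Very short introns were also rare among them. The 10th percentile of intron length was 261 bases, against 105 in the other introns, and the shortest circle, in Man2b1, spanned 99 bases. The first intron of a transcript gave 31.5% of the circles, against 23.9% of the other introns. The median GC content was 51.5% in the circles and 49.4% in 3622 other introns of 100 to 3000 bases. The length of the sequenced fragments, which could bear on the range of spans, was not known here, and its part was not tested. Annotated small RNA genes lay inside 3 circles, Snord66, Gm23969 and, in Snhg3, Snora73a. None of the 238 was in circBase, a catalogue of circRNAs, according to the deposited table, against 10 of 78 acceptor-to-donor circles and 704 of 8841 exonic ones.

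The 238 intron-start circles came from 231 introns. In 6 introns, several circles shared the first base and differed in the last. Elac2, which encodes a nuclease that trims tRNA ends, had 3 circles of 505, 507 and 510 bases with 1 control event each and none with BPA. Ends 1 or 2 bases apart were also found in Pml, Ehmt1, Rbck1 and Tpm1, and in Fbln2 they were 12 bases apart. In Ehmt1, a histone methyltransferase gene, both circles together had 1 event with BPA and 4 in the control. The circles of 4 of the 6 introns were seen in 1 library only.

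**Figure D2:**
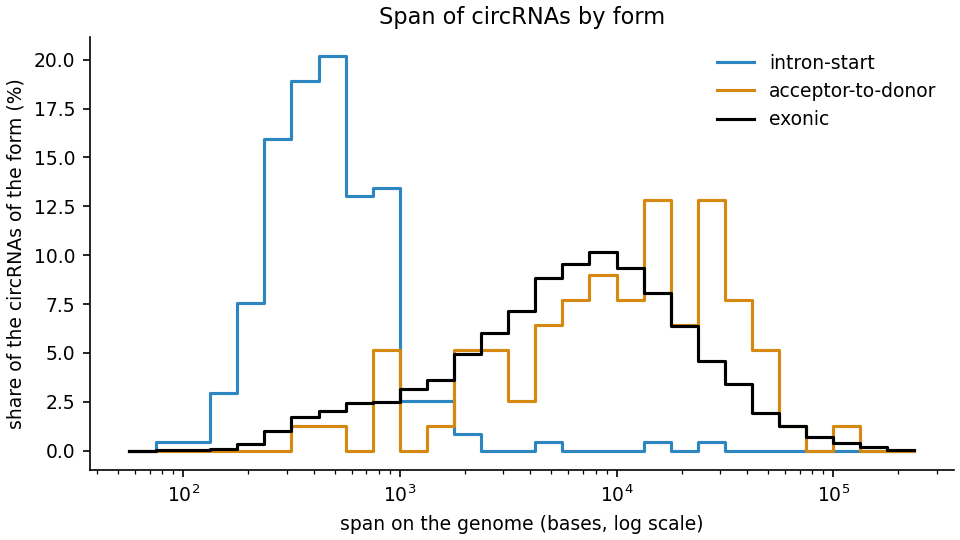
Share in percent of the circRNAs of each form by span on the genome in bases (log scale, bins of equal width on that scale). Intron-start circles (median 432 bases) lie mostly under 1000 bases, while acceptor-to-donor circles (median 11327 bases) spread over the range of the exonic circRNAs (median 6683 bases).

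The median span of acceptor-to-donor circles was 11327 bases with quartiles of 4849 and 26502, against 6683 for exonic circRNAs. Both ends lay at splice sites of the annotation used here (GENCODE M21) in 38 of 78, the start alone in 11, the end alone in 26, and neither in 3, which are in Magi1 (2) and Foxp1. The letters around both ends of the 8 circles with at least 10 events are printed to show the splice sites, 12 bases before and 8 within the circle at its start, then 8 within and 8 after it at its end, with the AG and the GT or GC in capitals (GRCm38, transcribed strand).
Lncpint, chr6:31139729-31181149, minus strand, start: tttctcccacAGgcatctcg
Lncpint, end: ccaaagagGTaactga
Asap1, chr15:64311618-64312475, minus strand, start: ctcccgcggcAGgatgccgg
Asap1, end: gggcagagGCaagggc
Ptk2, chr15:73391759-73394744, minus strand, start: tgtctcttccAGgtctctgg
Ptk2, end: gtcataaaGTaagttt
Pvt1, chr15:62149239-62175926, plus strand, start: catcccttccAGagagccga
Pvt1, end: ataattagGTgagaac
Ptchd4, chr17:42371898-42377640, plus strand, start: gcttcattgtAGagatgtgg
Ptchd4, end: cgccatggGTaactat
Zfp292, chr4:34839332-34848032, minus strand, start: cttccccagcAGcttcggca
Zfp292, end: agagaaagGTaaattt
Zranb1, chr7:132948044-132950435, plus strand, start: tctcctttacAGgaatagct
Zranb1, end: ctgtgtggGTaagttt
Magi1, chr6:94050641-94069200, minus strand, start: tgtcatttccAGctgtctac
Magi1, end: ttccagttGTaagtca

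Of the 8, Asap1 alone ended at a GC donor. The other circles followed by GC were a second circle of Asap1 and those of Kat6b and Acaca, named after their values were seen.

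Intronic and exon-intron circRNAs together took a smaller share of the BPA library than of the control library. They held 322 of 17586 events with BPA, 1.83% (1.64 to 2.04%), and 307 of 12909 in the control, 2.38% (2.12 to 2.66%). The log2 ratio of BPA over control was -0.38 (-0.61 to -0.15). In bulk RNA, fewer cells with a circle and fewer circles per cell cannot be told apart. Members typed intron had 119 events with BPA, 0.677% of the total, and 135 in the control, 1.05%, a log2 ratio of -0.63 (-0.996 to -0.262). The most abundant of them, in Magi1, had 0 events with BPA and 10 in the control. Without it the log2 ratio of type intron was -0.52. Members typed exon_intron had 203 events with BPA, 1.15%, and 172 in the control, 1.33%, a log2 ratio of -0.21 (-0.51 to 0.09) whose interval includes equality.

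Divided by form, intron-start circles had 154 events with BPA and 165 in the control, 0.876% (0.743 to 1.02%) and 1.28% (1.09 to 1.49%), a log2 ratio of -0.55 (-0.87 to -0.22). The 57 of them typed exon_intron had 37 events with BPA and 40 in the control. Their log2 ratio was -0.56 (-1.24 to 0.12), an interval that includes equality. The 181 typed intron had 117 with BPA and 125 in the control and a log2 ratio of -0.54 (-0.92 to -0.17). Acceptor-to-donor circles had 168 events with BPA, 0.955% (0.817 to 1.11%), and 141 in the control, 1.09% (0.920 to 1.29%), a log2 ratio of -0.19 (-0.52 to 0.14). The intervals of the 2 forms overlap, and the difference between them was not tested. In number of distinct circles, 125 intron-start circles of 6485 circRNAs were seen with BPA, 1.93%, and 120 of 4706 in the control, 2.55%, a log2 ratio of -0.40. These ratios rest on the total of each library. With no scaling, the intron-start ratio was -0.10 and the acceptor-to-donor ratio 0.25, which is of opposite sign to that by share. The larger number of events in the BPA library is therefore part of every value by share, and depth and treatment cannot be told apart with 1 library per group.

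**Figure D3:**
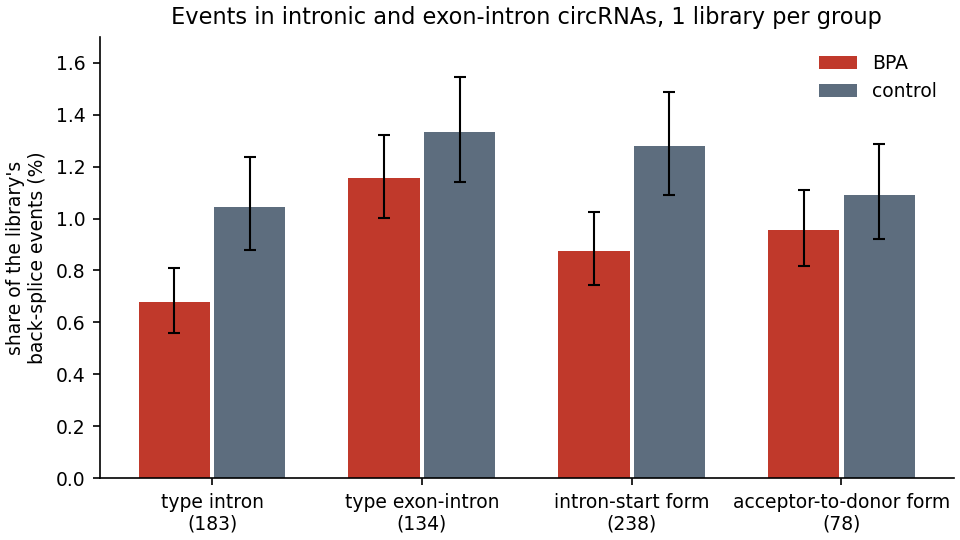
Share in percent of each library's back-splice events in the members of each deposited type and of each form (number of circRNAs in brackets), with BPA on the left and control on the right of each pair, and exact 95% counting intervals as bars. The BPA bar is lower in all 4 pairs, with intervals that do not overlap for type intron and for intron-start circles. These sets share 181 circles, and the intervals take events as independent and may be too narrow.

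Few circles were seen in both libraries. Of the 238 intron-start circles, 118 were seen with BPA only, 113 in the control only and 7 in both, 2.94%. Of the 78 acceptor-to-donor circles, 32 were seen with BPA only, 16 in the control only and 30 in both, 38.5%, and of the 8841 exonic circRNAs 1996 were in both, 22.6%. The intron-start circles had fewer events each, with 182 of 238 at a single event. Among circRNAs with exactly 2 events, 1 of 42 intron-start circles had them in both libraries (2.38%, exact 95% interval 0.0603 to 12.6%), against 4 of 14 acceptor-to-donor circles (28.6%, 8.39 to 58.1%) and 399 of 1738 exonic ones (23.0%). With 3 to 4 events, 4 of 12 intron-start circles were in both (33.3%, 9.92 to 65.1%), an interval that includes the 51.1% of exonic circRNAs, and with 5 to 9 events both of the 2 intron-start circles were, against 84.0% of exonic ones. Pairs of events that fell independently by library size would be divided between the libraries in 48.8% of cases. The intervals of intron-start and exonic circles with 2 events lay below that share, and that of acceptor-to-donor circles included it. The counting intervals given here take events as independent, so they may be too narrow. Of the 231 introns counted in place of the circles, 7 were in both libraries. With the BPA library thinned to the control total in 1 random draw, 91 intron-start circles were seen with BPA only, 114 in the control only and 6 in both. In that draw the order of the first 2 counts turned, and the spread over draws was not measured.

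**Figure D4:**
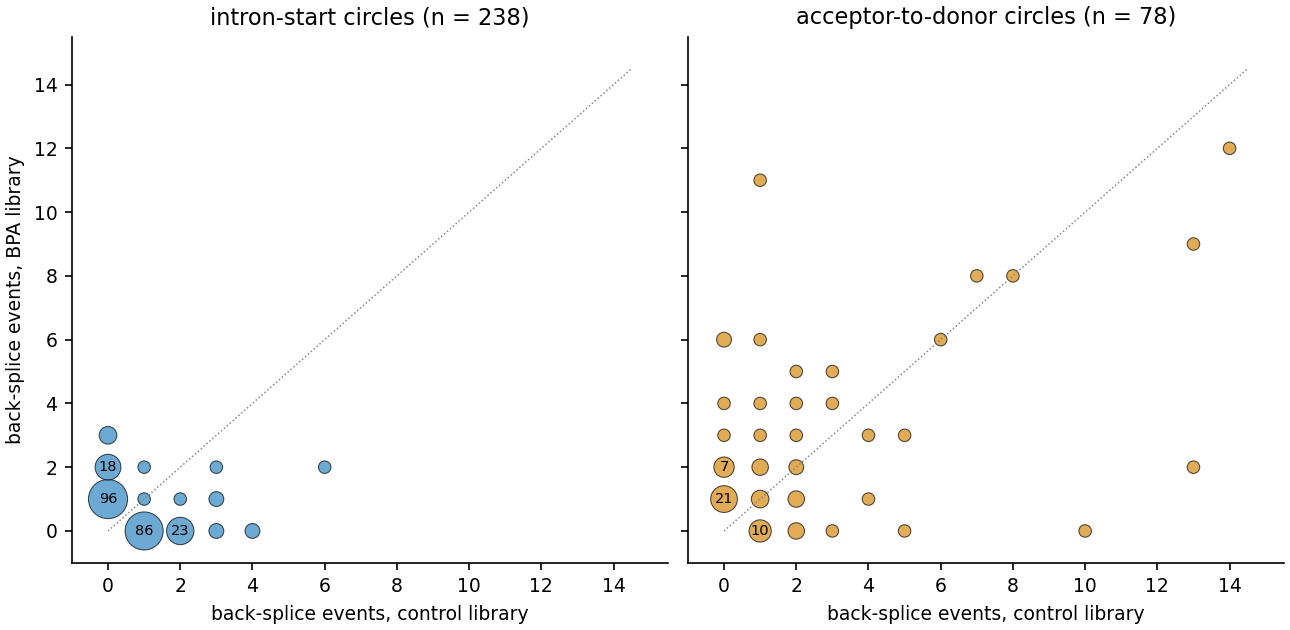
Back-splice events of each circle in the BPA library (vertical axis) and in the control library (horizontal axis), for 238 intron-start circles (left) and 78 acceptor-to-donor circles (right). The size of a point grows with the number of circles at that place, which is printed where it is 5 or more, and the dotted line marks equal events. Intron-start circles lie along the axes, 96 of them at 1 event with BPA and 0 in the control, and acceptor-to-donor circles reach 12 events with BPA and 14 in the control in Lncpint.

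The 7 intron-start circles seen in both libraries lay in genes of widely different expression. Their hosts ranged from 204 normalised reads per kb of exon in the mRNA libraries for Pml to 15339 for P4hb. The median of the 7 was 1634, against 644 for circles seen with BPA only and 741 for those seen in the control only. Pml and Ehmt1, at 238, lay below both of the latter medians. Pml, the scaffold of nuclear bodies, had 2 events with BPA and 6 in the control in its larger circle of 401 bases, and its mRNA had 1046 reads with BPA and 1223 in the control. Itpr3, a calcium release channel of the endoplasmic reticulum, had 2 events with BPA and 3 in the control in a circle of 316 bases. Parp1, which senses DNA breaks, had 2 with BPA and 1 in the control (chr1:180587402-180587878). Rab1b, a small GTPase of vesicle traffic, and Akr1a1, an aldehyde reductase, each had 1 event with BPA and 3 in the control. Ehmt1 had 1 with BPA and 2 in the control in the circle of 332 bases. P4hb, a protein disulfide isomerase whose mRNA had 44578 reads with BPA and 43178 in the control, had 1 event in each library. No intron-start circle had more than 8 events in all, so none could be compared singly. The kinase gene Mast3 and the LIM-domain gene Fhl1 had 0 events with BPA and 4 in the control, with counting intervals of the log2 ratio that reach up to 0.33, and Usp36, a nucleolar deubiquitinase (chr11:118285102-118285737), had 3 with BPA and 0 in the control. Circles seen with BPA only and in the control only had a median distance of 25 bases from the 3′ splice site in each set. Their median span was 451 bases for those seen with BPA and 430 for those seen in the control, and their median GC content 51.3% with BPA and 51.5% in the control.

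Only 8 of the 317 members reached 10 events in both libraries together, all of them acceptor-to-donor circles, against 457 of all 9158 circRNAs. Of the 8, 1 was at least 2-fold higher and 2 were at least 2-fold lower with BPA, where 17.7% of the 457 were higher and 9.63% lower. The median log2 ratio was -0.37 over the 8 and 0.18 over the 457. These ratios were scaled with trimmed-mean (TMM) factors over all circRNAs. The log2 ratio of these factors, BPA over control, was -0.17, and 0.08 for factors over circRNAs with at least 10 events. Simulated data with no change put in gave a log2 factor similar to -0.17 over all circRNAs. That simulation drew events as independent, unlike the division of the real exonic events between the libraries. The cause of the factor in the data was not tested. The numbers higher and lower therefore depend on the scaling. By share of the total, 14.2% of the 457 were higher and 12.9% lower, their median was 0.01, and among the 8, 1 was higher and 2 were lower. In TMM over circRNAs with at least 10 events, a scaling chosen after seeing the data, 3 of the 8 were at least 2-fold lower, with Asap1 at -1.01.

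Zranb1, which encodes the deubiquitinase Trabid, gave the 1 higher circle. It had 11 events with BPA and 1 in the control, a log2 ratio of 2.72 (0.40 to 8.61), while its mRNA had 1159 reads with BPA and 1124 in the control, a log2 ratio of -0.07. Its 5 exonic circRNAs had 13 events with BPA and 4 in the control. A second member of the gene, spanning 11150 bases (chr7:132949585-132960734), had 2 events in each library.

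Magi1, a scaffold protein of cell junctions, gave one of the lower circles, with 0 events with BPA and 10 in the control. With 3 events in place of 0 it was 4.03-fold lower, a value that leaves out the counting error of the 10 events. Its counting interval ended at a log2 ratio of -1.44, a smaller difference than 4.03-fold. Its mRNA had 1301 reads with BPA and 1436 in the control, a log2 ratio of -0.25. The circle spanned 18560 bases, and neither end was an annotated splice site. A second Magi1 circle shared its start and ended after 347 bases (chr6:94068854-94069200), with 2 events with BPA and 0 in the control. Another, of 107563 bases (chr6:93943204-94050766), had 1 with BPA and 0 in the control, and the 3 exonic circRNAs of the gene had 2 events with BPA and 3 in the control.

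Ptchd4, a gene of the patched-domain family, was the other lower one, with 2 events with BPA and 13 in the control and a log2 ratio of -2.67 (-6.16 to -0.83). Its mRNA had 858 reads with BPA and 1315 in the control, a log2 ratio of -0.73, and its 1 exonic circRNA, of 481 bases, had 87 events with BPA and 129 in the control.

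The other 5 circles with at least 10 events had counting intervals that include equality. Lncpint, a long noncoding RNA gene listed with the overlapping Gm13835 and Gm37728, had the most, 12 with BPA and 14 in the control, a log2 ratio of -0.48 (-1.74 to 0.72). The 2 exonic circRNAs of that entry had 15 events with BPA and 2 in the control. Asap1, an Arf GTPase-activating protein gene, had 9 events with BPA and 13 in the control in its circle of 858 bases, with a log2 ratio of -0.77 (-2.21 to 0.53), and its mRNA was at -0.56. Ptk2, which encodes focal adhesion kinase, had 8 events in each library, and its 14 exonic circRNAs together had 26 with BPA and 16 in the control. Zfp292, a zinc finger gene, had 6 in each, beside 74 events with BPA and 52 in the control for its 3 exonic circRNAs.

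Pvt1 and Foxp1 gave the most members, and their circles shared splice sites. Pvt1, a long noncoding RNA gene beside Myc, had 6 members with 22 events with BPA and 18 in the control. Of these, 4 ended at the same donor and the other 2 at a donor 378 bases before it, and they began at 4 acceptors. The longest, of 26688 bases, had 8 events with BPA and 7 in the control. The circle of 5169 bases had 3 events with BPA and 5 in the control, that of 4303 bases 3 with BPA and 4 in the control, and that of 15930 bases 4 with BPA and 1 in the control. The 9 exonic circRNAs of Pvt1 had 249 events with BPA and 312 in the control, of which 225 with BPA and 287 in the control were in 1 circle of 318 bases. Its mRNA had 414 reads with BPA and 274 in the control, a log2 ratio of 0.48.

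Foxp1, a forkhead transcription factor gene, had 4 members on chromosome 6 with 15 events with BPA and 9 in the control. The longest, of 27371 bases (chr6:99429210-99456580), had 6 events with BPA and 0 in the control, and the circle of 21365 bases 4 with BPA and 2 in the control. That of 6136 bases had 4 with BPA and 3 in the control, and that of 6557 bases 1 with BPA and 4 in the control. The counting interval of the longest began at a log2 ratio of -0.04, so it includes equality. The mRNA of Foxp1 had 2597 reads with BPA and 1849 in the control, a log2 ratio of 0.38. Spire1, an actin nucleator gene, also gave 3 members, with 2 events with BPA and 2 in the control in all.

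**Figure D5:**
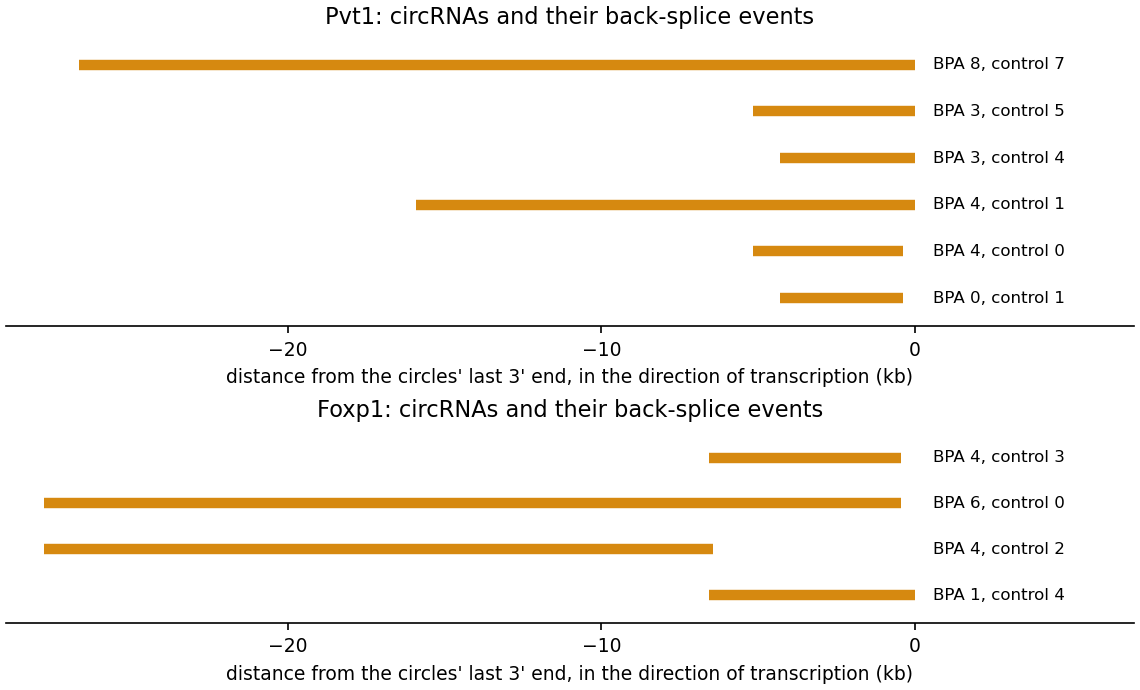
The circRNAs of Pvt1 (6, above) and Foxp1 (4, below) drawn along the transcript by distance in kb from the last 3′ end among the circles of the gene, in the direction of transcription, with the back-splice events of each in the BPA and the control library at its right. In Pvt1, 4 circles end at the same place, and in Foxp1 the 4 circles begin at 2 places.

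The remaining members with at least 2 events in each library were in Epb41l4a with 5 events with BPA and 3 in the control, Tulp4 with 5 with BPA and 2 in the control, Tasp1 with 3 with BPA and 2 in the control, and Rbm4 with 2 in each. No interval of these excluded equality. In the authors' deposited table, 2 of all 317 members had a p-value under 0.05, against 25 of all 9158 circRNAs. The smallest adjusted p-value in the authors' deposited table was 0.865, over the members and over all circRNAs.

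Host genes of intron-start circles were strongly expressed, and their mRNA ratios centred near 0. Their 224 matched hosts had a median of 647 normalised reads per kb of exon, averaged over both mRNA libraries, against 272 for 59 hosts of acceptor-to-donor circles, 307 for 3803 hosts of exonic circRNAs and 138 for all genes with at least 10 reads. The median log2 ratio of their mRNA was -0.07, that of acceptor-to-donor hosts -0.00, and that of all genes 0.02. Of the 224, 3 were at least 2-fold higher and 2 lower with BPA, and of the 59, 1 was higher and 1 lower. The latter, named after their values were seen, were Gm13483 (2 reads with BPA, 0 in the control) and Tbr1 (3 with BPA, 7 in the control). Of 3803 hosts of exonic circRNAs, 57 were higher and 37 lower, and of 16870 genes 6.88% were higher and 4.61% lower. These 2 sets needed at least 10 reads, while the hosts of the 2 forms had no minimum. The 5 hosts of intron-start circles past 2-fold were Josd2, Zcwpw1 and Mdfic, higher with log2 ratios of 1.24, 1.22 and 1.13, and Gadd45g and Fndc3b, lower at -1.18 and -1.11. Each had a single event in the circle, in the control library for Josd2 and in the BPA library for the others. The host also had an exonic circRNA for 113 of 238 intron-start circles and for 67 of 78 acceptor-to-donor circles. Hosts of circles seen with BPA only had a median mRNA log2 ratio of -0.04 and hosts of those seen in the control only one of -0.10, among intron-start circles.

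Genes that make, open or degrade such circles differed by less than 2-fold in the mRNA libraries, with 1 exception. Of 63 genes in lists of lariat turnover, spliceosome, circularisation, export and decay factors, 61 passed the filter, 0 were at least 2-fold higher, 1 was lower, and the median log2 ratio was -0.14. Over all 16870 genes past the filter, 6.88% were higher and 4.61% lower. Of the 3803 hosts of exonic circRNAs, 57 were higher and 37 lower. The 8 genes of lariat debranching and turnover lay between -0.34 for Dis3 and 0.17 for Xrn1. Dbr1, which cuts the branch bond, had 1417 reads with BPA and 1450 in the control, a log2 ratio of -0.14 (-0.25 to -0.04). Among 12 genes of the U1 particle and early spliceosome, 9 were below 0, where 8121 of all 16870 genes were below 0 with a median of 0.02. Sf1, which binds the branch point, was at -0.01, U2af2, which binds the polypyrimidine tract, at -0.51, and Sf3b1, of the U2 particle, at -0.30. Of 13 measured factors that favour circularisation, 12 were below 0 with a median of -0.31, the lowest being Ptbp1 at -0.67. Of the 8 that limit it, 5 were below 0 and the median was -0.03, with values between -0.36 for Hnrnpk and 0.80 for the RNA editing enzyme Adar, which had 2922 reads with BPA and 1549 in the control. Hnrnpc was at 0.53 and the helicase Dhx9 at -0.24. In the decay list 8 of 13 were above 0 with a median of 0.01, between -0.38 for Tnrc6a and 0.93 for Mettl14, a subunit of the m6A methyltransferase. These lists were not tested as sets. The 1 gene past 2-fold was Zc3h11a, an mRNA export protein gene, with 581 reads with BPA and 1255 in the control and a log2 ratio of -1.22 (-1.37 to -1.08).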

How the data were processed

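The aligner STAR (both kinds of library), StringTie (mRNA) and the builds GRCm38 and mm10 come from the submitters' processing notes. The circRNA caller and read counter are not named in these sources. The deposited circRNA values were log2 values made by the authors. Undoing the log, subtracting 1 and halving gave whole numbers (tolerance 0.001) for 100% of circRNAs, and these were taken as back-splice events. Why each event counts 2 is not given. Since all values were whole after halving, 2 reads of an event would not be independent, and each event was taken as 1 count. The intervals also take events as independent. Among circRNAs with 2 events, 23.0% of exonic and 2.38% of intron-start ones had them in both libraries. Independent events would give 48.8%, which the interval of acceptor-to-donor circles (28.6%) included. The intervals of shares and ratios may therefore be too narrow, and the cause was not tested. The deposited mRNA values were log2 values of normalised reads, from which whole reads were recovered as multiples of 1 step per library. The authors' deposited p-values and adjusted p-values came from 1 library against 1, by a test that is not named. The small RNA table was not used here.

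The planned analysis expected counts, whereas the unit was log2, so no count model was fitted. Shares have exact Clopper-Pearson and ratios exact conditional binomial 95% intervals (SciPy 1.17.1). Ratios of single circRNAs used 0.5 added events, TMM factors computed from the published formula (0.942 for BPA, 1.06 for the control) and a minimum of 10 events in both libraries together. Ratios of mRNA used a pseudocount of 1. At least 2-fold was counted. Positions were compared with GENCODE M21 and the genome sequence read with pysam 0.24.0. Functions were tested on simulated data. PCR copies carry no molecular identifiers here, so reads are not independent molecules.

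Members and gene lists were chosen with earlier results of these data known. Named by rule were the 10 members of each type with the most events, the 6 with the largest ratios in each direction, the 3 longest and 3 shortest of each type, hosts with 3 or more members, members with 2 or more events in each library, and of the factors those past 2-fold and up to 8 others by reads. Dbr1, Dis3 and Xrn1 lie outside it and were chosen after their values were seen.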

Additional observations from a re-analysis of the deposited data

How the results depend on the processing

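With 1 library per group no replicate could be left out and no paired analysis was possible because each group holds a single library. Counting distinct circRNAs gave members a share of 2.88% with BPA and 3.55% in the control, and keeping circRNAs with at least 2 events gave 1.43% with BPA and 1.90% in the control. With median-of-ratios scaling, whose size factors left the events as they were, and with no scaling, the log2 ratio was -0.18 for type intron, 0.24 for type exon_intron, -0.10 for intron-start and 0.25 for acceptor-to-donor circles. With at least 10 events it was -0.59 for type exon_intron and -0.81 for acceptor-to-donor circles, and no ratio exists for type intron, whose 1 such member had 0 events with BPA, or for intron-start circles. A minimum of 20 events left 0 members higher and 0 lower, no filter 154 higher and 135 lower, since a single event then counts as 2-fold. With at least 2 events, the median span was 887 bases over all members and 474.5 over intron-start circles, the median distance to the 3′ splice site 26.5 bases and the share of intron-start circles 54.4%, against 75.1%. With no filter, 2 factors were lower. With the BPA library thinned to the control total in the same random draw, 118 members were seen with BPA only, 134 in the control only and 33 in both. Of acceptor-to-donor circles, 27 were seen with BPA only, 19 in the control only and 27 in both. With TMM the acceptor-to-donor log2 ratio was -0.02. Pvt1, at -0.08, was at 0.18 with median-of-ratios and with no scaling. Of 116 alternative values, 92 stayed within their interval, within 1.5 times of a count or on their side of 2-fold. Among them were the thinned counts and the TMM and Pvt1 values given after them. The values given before the thinned counts, 23 over all settings, moved past these limits. In addition, 1 single circle, Asap1, passed 2-fold. The form ratios and the settings relative to exonic events, by distinct circRNAs per type, and TMM over circRNAs with at least 10 events were chosen after seeing the data. The causes of these shifts were not tested, beyond the fewer circRNAs that a stricter minimum keeps. Depth limits single members, of which 214 of 317 had 1 event.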
